A study of Mus musculus with 8 samples.

Results

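The genes described here are 10 brakes on cell division and their upstream regulators: the CDK inhibitors *Cdkn1a*, *Cdkn1b*, *Cdkn1c*, *Cdkn2a* and *Cdkn2b*, the tumor suppressor p53 (*Trp53*) and its ubiquitin ligase *Mdm2*, and the stress-response genes *Gadd45a*, *Gadd45b* and *Gadd45g*. They were chosen by name, as the rows of the normalized count table that carry these 10 symbols, out of 55401 genes in all. All 10 were found. They were measured by bulk RNA-seq of tibialis anterior (TA) muscle, in 4 samples of *mdx5cv* mice, a model of Duchenne muscular dystrophy with a mutation in *Dmd*, and 4 samples of wild type (WT) mice, each called a muscle here. Both groups were of the C57/Bl6 strain and 6 mo old, no treatment is recorded for either, and the labels do not give the sex. Each library was made from RNA of the muscle as a whole, and the labels describe no sorting of cells. In such bulk RNA, fewer cells of a type and less RNA per cell cannot be told apart.

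CDK inhibitors hold the cell cycle by binding cyclin-dependent kinases. The Cip/Kip proteins p21 (*Cdkn1a*), p27 (*Cdkn1b*) and p57 (*Cdkn1c*) bind several cyclin-CDK complexes, whereas the INK4 proteins p16Ink4a (*Cdkn2a*) and p15Ink4b (*Cdkn2b*) bind the kinases *Cdk4* and *Cdk6* alone. In muscle, p21 and p57 accompany the exit of myoblasts from the cell cycle during differentiation, and p16Ink4a is widely used as a marker of senescent cells. p53 is a transcription factor that is activated by DNA damage and other stress. *Cdkn1a*, *Mdm2* and *Gadd45a* are among its classical targets, and *Mdm2* in turn marks p53 for degradation. The Gadd45 proteins are small stress sensors that bind p21 and the kinase *Map3k4*, and *Gadd45a* is known for its induction in atrophying muscle.

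Values are normalized counts, which are the reads of a gene divided by a size factor of the muscle. The 8 libraries held 13175524 to 14921057 reads each. *Dmd*, the mutated gene, stood at 6954 ± 857 in WT muscles and 3964 ± 388 in *mdx5cv* muscles (SD, n = 4), and its log2 fold change was -0.81 (adjusted p = 0.000177, limma). Fold changes are on the scale of log2(normalized count + 1), which understates the change of low genes. A gene is called here when its limma adjusted p was under 0.05 and its absolute log2 fold change was at least 1. Adjusted p-values are over the 13677 genes whose mean over the 8 muscles reached a normalized count of 10.

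*Cdkn1a*, *Cdkn1c* and *Cdkn2a* were higher and *Gadd45g* was lower in the *mdx5cv* muscles. *Gadd45a* was also higher, just short of the fold threshold. *Cdkn1b*, *Cdkn2b*, *Mdm2*, *Gadd45b* and *Trp53* missed the threshold for the adjusted p. Thus 4 of the 10 genes were called, 3 of them higher and 1 lower, where 13.6% of all genes tested were called, 10.3% higher and 3.27% lower. The values of the 2 groups did not overlap for 3 of the 10 genes (*Cdkn1a*, *Cdkn2a* and *Gadd45a*), against 40.1% of all genes tested. *Cdkn2a* passed the filter on low values through the *mdx5cv* muscles alone and so had to differ, which is why these counts are a description only. The median log2 fold change of the 10 genes was 0.47, also with *Cdkn2a* at its lower bound, beside 0.0035 over all genes tested.

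**Figure D1:**
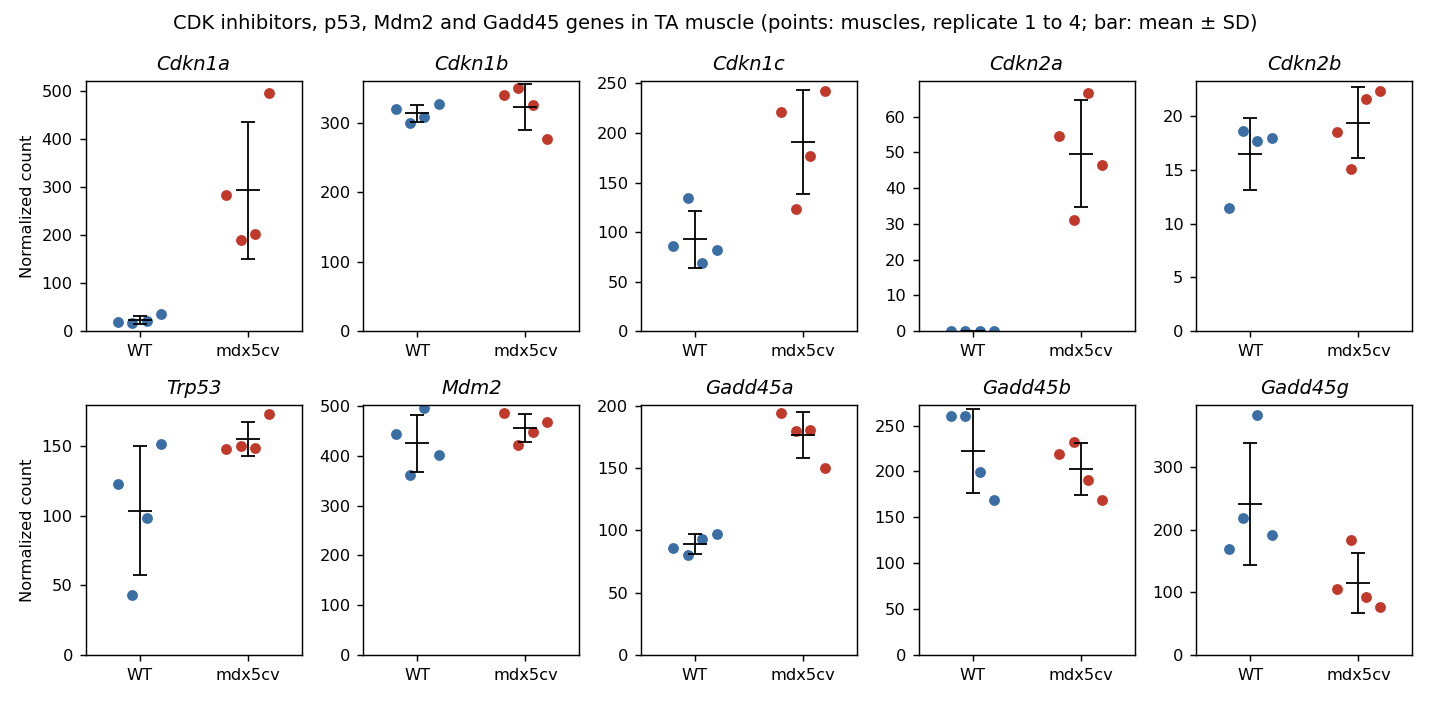
Normalized count (y axis, linear from 0, a scale of its own in each panel) of each of the 10 genes in the 4 WT (blue) and 4 mdx5cv (red) muscles. Points are muscles in the order of replicates 1 to 4 and bars are the mean ± SD. The groups are apart for Cdkn1a, Cdkn2a and Gadd45a, and WT replicate 3 stands above the other muscles for Gadd45g.

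*Cdkn1a*, which encodes p21, had the highest fold among the Cip/Kip genes. Its normalized count was 18.3, 17.6, 22.1 and 35.0 in WT replicates 1 to 4 and 283, 190, 203 and 496 in *mdx5cv* replicates 1 to 4. The lowest *mdx5cv* muscle was thus well above the highest WT muscle, and replicate 4 was the highest of either group. The means were 23.2 ± 8.06 and 293 ± 142 (SD, n = 4), a 12.6-fold difference of means. The log2 fold change was 3.54 (standard error 0.29, adjusted p = 2.44e-06, limma). It ranged from 3.11 to 3.89 over 20 alternative settings and passed the thresholds in each. WT muscles held 16 to 33 reads of the gene and *mdx5cv* muscles 201 to 621.

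*Cdkn1a* lies on chromosome 17 from 29090976 to 29100727 (GRCm38, GENCODE M21) and has 2 start sites 2790 bases apart in RefSeq (GRCm38.p6). The stretches before both starts are shown because the upstream one carries a p53 element and p53 is a well known activator of this gene. A p53 element was searched on both strands as 2 adjacent p53 half-sites with at most 1 mismatch outside their cores, and its form was set after the stretch had been read. It is in 18 (0.0548%) of the 32851 promoter windows of RefSeq, and in 1 of the 11 windows of the genes described here. In the sequence before the upstream start (chr17:29090729-29090975, + strand), the capitals mark the p53 element, from 51 to 32 bases before the start. In that before the downstream start (chr17:29093619-29093768, + strand), the capitals mark the GC boxes (GGGCGG on either strand), which begin 104 and 46 bases before the start and are in 35.7% of all windows.
Cdkn1a upstream start: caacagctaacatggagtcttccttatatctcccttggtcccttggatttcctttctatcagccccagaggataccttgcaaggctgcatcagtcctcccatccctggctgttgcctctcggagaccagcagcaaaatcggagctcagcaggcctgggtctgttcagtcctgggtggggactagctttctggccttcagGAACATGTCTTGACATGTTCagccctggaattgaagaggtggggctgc
Cdkn1a downstream start: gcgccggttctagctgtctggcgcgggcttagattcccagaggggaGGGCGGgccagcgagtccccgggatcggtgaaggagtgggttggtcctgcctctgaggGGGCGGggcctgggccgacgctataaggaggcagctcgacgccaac
The counts are per gene and do not tell which start was used. A match of letters is a description and not a measured binding site.

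*Cdkn1c*, an imprinted gene that encodes p57, rose by less. WT replicates 1 to 4 had 86.0, 135, 68.6 and 81.6 normalized counts and *mdx5cv* replicates 1 to 4 had 221, 124, 176 and 242. *mdx5cv* replicate 2 lay below WT replicate 2, so the groups overlapped, whereas the other 3 *mdx5cv* muscles were above every WT muscle. The log2 fold change was 1.03 (standard error 0.23, adjusted p = 0.0031, limma), close to the fold threshold. It fell below 1 in 6 of 20 alternatives, to between 0.91 and 0.99, namely with a pseudocount of 10, when centred on the median, and without WT replicate 3, WT replicate 4, *mdx5cv* replicate 1 or *mdx5cv* replicate 4. Its limma adjusted p was at most 0.0136 in any of the 20. *Kcnq1ot1*, the long noncoding RNA of the same imprinted domain, had a log2 fold change of 0.41 (adjusted p = 0.0057, limma), and *Kcnq1* one of -0.00 (adjusted p = 0.998, limma). Neither was called, and the other 2 neighbours on the list, *Phlda2* and *Slc22a18*, were too low to test.

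*Cdkn1b*, which encodes p27, had the smallest fold change of the 3. Its normalized count was 321, 299, 308 and 327 in WT and 341, 351, 326 and 276 in *mdx5cv* replicates 1 to 4. The groups overlapped, and the log2 fold change was 0.04 (95% interval -0.20 to 0.27, adjusted p = 0.806, limma), with a sign that changed with the centring and with *mdx5cv* replicate 2 left out. With every muscle scaled to the same total, the log2 fold change was 0.40 (adjusted p = 0.0154, limma), under the fold threshold. The median of all genes tested was then 0.36.

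These changes shifted the makeup of the Cip/Kip transcripts. Levels per kb of exon were used to compare genes, and shares of them do not depend on the scaling between muscles. The length was that of the joined exons of all annotated transcripts of a gene. Which transcripts were present was not measured, so levels and shares of different genes are approximate. Per kb of exon, *Cdkn1a* held 5.46% ± 1.96 of the sum of the 3 genes in WT muscles and 32.1% ± 7.92 in those of *mdx5cv* (SD, n = 4). The share of *Cdkn1b* was 57.5% ± 6.51 in WT and 30.3% ± 8.95 in *mdx5cv*, and neither share overlapped between the groups. That of *Cdkn1c* was 37.1% ± 7.75 and 37.6% ± 4.29. The sum of the 3 genes was 121 ± 12.1 normalized counts per kb in WT muscles and 247 ± 56.6 in those of *mdx5cv* (SD, n = 4), without overlap.

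**Figure D2:**
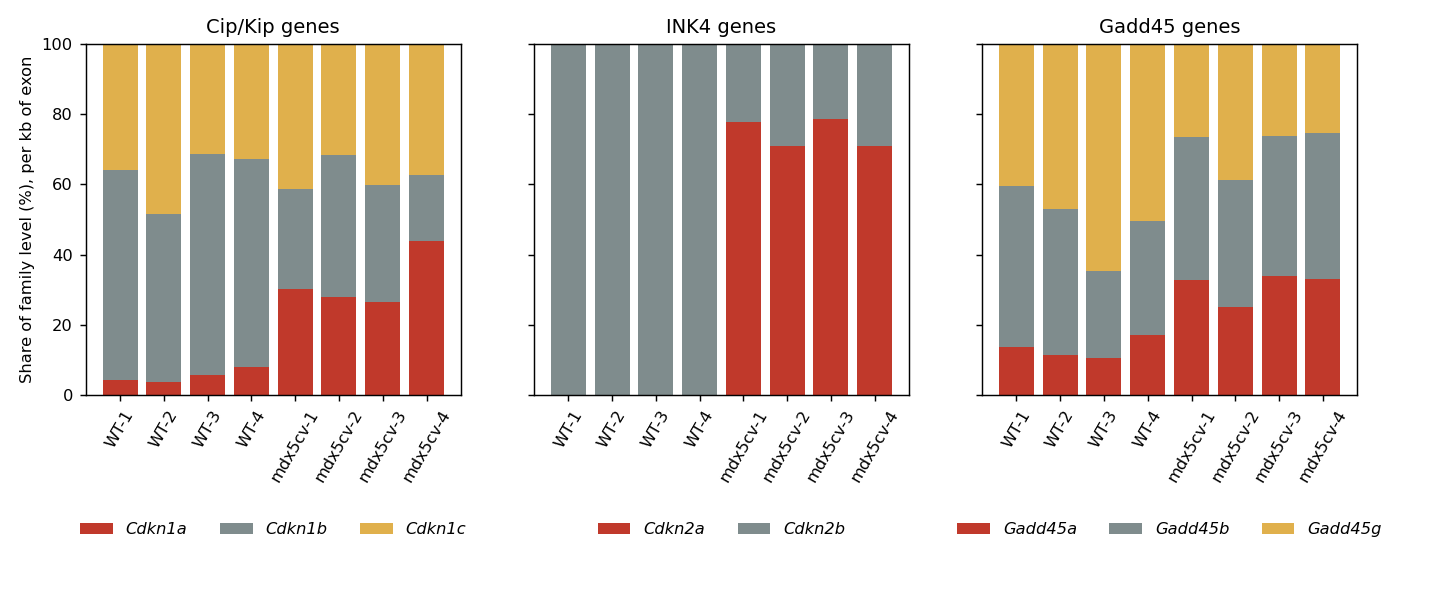
Share (percent, y axis from 0 to 100) of each gene in the summed level per kb of exon of its family, in each WT and mdx5cv muscle (x axis, numbered by replicate). The red segments, Cdkn1a, Cdkn2a and Gadd45a, were taller in each of the 4 mdx5cv muscles than in the WT muscles.

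Among the INK4 genes, *Cdkn2a* was read in *mdx5cv* muscles and in no WT muscle. Its normalized count was 54.7, 31.1, 66.6 and 46.3 in *mdx5cv* replicates 1 to 4, from 59, 33, 74 and 58 reads, and there was no read in any of the 4 WT libraries. Taking 3 reads per library as the limit that a count of 0 allows, the level was at least 15.0-fold higher in *mdx5cv*. This limit covers counting error only. The fitted log2 fold change of 5.61 (adjusted p = 9.78e-07, limma) depends on the pseudocount and was 2.54 with a pseudocount of 10 and 8.91 with 0.1. Unlike *Cdkn1a*, *Cdkn2a* was not highest in *mdx5cv* replicate 4.

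*Cdkn2a* lies on chromosome 4 from 89274471 to 89294653 (GRCm38, GENCODE M21) and encodes a pair of unrelated proteins from 2 starts, which are 12427 bases apart in RefSeq: p19Arf, an inhibitor of *Mdm2*, from the upstream one and p16Ink4a from the downstream one. The gene count joins both, so which of them the reads came from was not measured. The sequences before both starts are shown for that reason. Capitals mark the GC box, which begins 48 bases before the upstream start (chr4:89294654-89294869, - strand) and is not among the letters shown before the downstream start (chr4:89282193-89282342, - strand).
Cdkn2a upstream start: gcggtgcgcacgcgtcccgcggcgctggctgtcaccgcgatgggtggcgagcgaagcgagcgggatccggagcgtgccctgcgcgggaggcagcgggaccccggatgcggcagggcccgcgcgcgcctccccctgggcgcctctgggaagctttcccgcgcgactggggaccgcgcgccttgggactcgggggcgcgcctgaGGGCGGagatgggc
Cdkn2a downstream start: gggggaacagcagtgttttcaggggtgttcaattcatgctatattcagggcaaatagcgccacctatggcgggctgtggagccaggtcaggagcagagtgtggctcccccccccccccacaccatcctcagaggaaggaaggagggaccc
Bases that GENCODE M21 places inside the gene were left off the upstream stretches.

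*Cdkn2b*, the neighbour of *Cdkn2a* on chromosome 4 (89306299 to 89311039), was not called. There were 11.5, 18.6, 17.7 and 18.0 normalized counts in WT and 18.5, 15.1, 21.6 and 22.4 in *mdx5cv* replicates 1 to 4, from 10 to 28 reads. The groups overlapped and the log2 fold change was 0.23 (95% interval -0.34 to 0.81, adjusted p = 0.512, limma), an interval that still holds moderate changes either way. The other INK4 genes were not called either. *Cdkn2c* (p18Ink4c) had a log2 fold change of -0.01 (adjusted p = 0.963, limma) and *Cdkn2d* (p19Ink4d) one of 0.45 (adjusted p = 0.153, limma). Per kb of exon, *Cdkn2a* held 74.6% ± 4.12 (SD, n = 4) of the sum of *Cdkn2a* and *Cdkn2b* in *mdx5cv* and none in WT.

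*Trp53* itself was not called. The WT muscles had 123, 42.8, 98.4 and 151 normalized counts and the *mdx5cv* muscles 148, 150, 149 and 173, in the order of replicates 1 to 4. The *mdx5cv* muscles were close together, the WT muscles were spread more widely, and WT replicate 4 lay among the *mdx5cv* values. The log2 fold change was 0.71 (95% interval 0.08 to 1.34, adjusted p = 0.0672, limma). It was 0.34 without WT replicate 2, the lowest muscle (adjusted p = 0.103, limma), and 0.94 without WT replicate 4, the highest WT muscle (adjusted p = 0.0197, limma). It was 1.07 when every muscle was scaled to the same total, where it was called (adjusted p = 0.0126, limma). That scaling moved the median of all genes tested to 0.36.

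*Mdm2*, which both answers to p53 and limits it, was not called either. Its normalized count was 444, 362, 496 and 401 in WT and 486, 423, 448 and 469 in *mdx5cv* replicates 1 to 4. The groups overlapped, with a log2 fold change of 0.11 (95% interval -0.14 to 0.35, adjusted p = 0.481, limma). With every muscle scaled to the same total, the log2 fold change was 0.47 (adjusted p = 0.017, limma), under the fold threshold. The median of all genes tested was then 0.36. *Mdm4*, the partner of *Mdm2* in restraining p53, had a log2 fold change of 0.17 (adjusted p = 0.188, limma). Limma called 13.6% of all genes tested. None of the 12 tested genes of a list of 14 p53 regulators and relatives was called in either direction by limma, and none by edgeR or DESeq2. At an adjusted p under 0.05 alone, limma had 2 of them higher (*Trp53bp1* and *Ppp1r13l*) and 1 lower (*Cop1*), and at an unadjusted p 2 higher and 2 lower.

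The level of *Cdkn1a* relative to *Trp53* therefore differed between the groups. The ratio of the levels per kb, *Cdkn1a* over *Trp53*, was 0.170 to 0.467 in WT muscles and 1.44 to 3.26 in *mdx5cv* muscles, without overlap. The ratio of *Mdm2* to *Trp53* was 2.11 to 6.73 in WT and 2.15 to 2.61 in *mdx5cv*, with overlap.

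**Figure D3:**
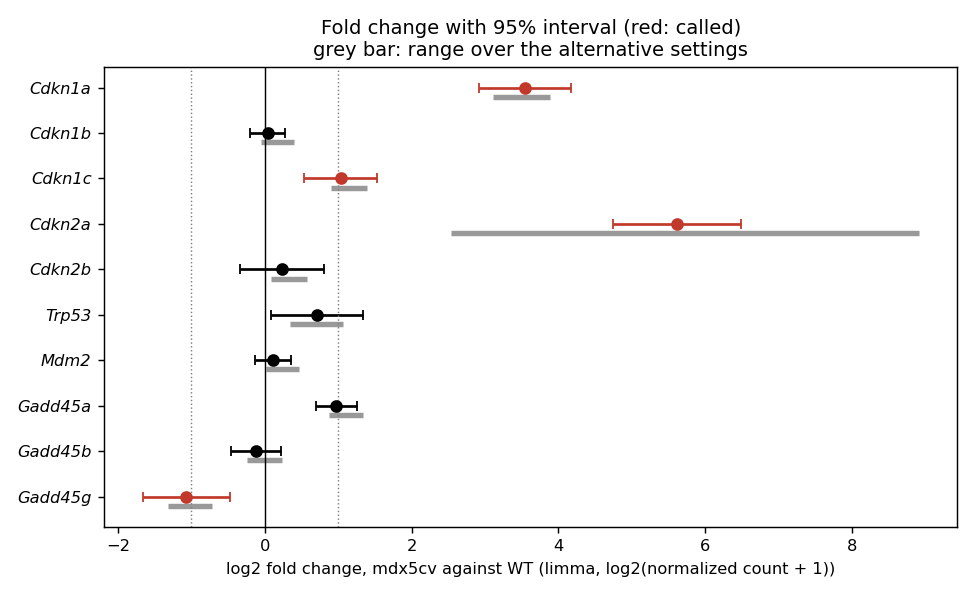
Log2 fold change of each of the 10 genes in mdx5cv against WT (x axis), with its 95% interval from limma as a line through the point (red when called). The grey bar below each point is the range over the alternative settings and dotted lines mark a log2 fold change of 1 in either direction. The grey bar of Cdkn2a runs from 2.54 to 8.91 and those of Cdkn1b and Gadd45b cross 0.

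Of a list of 27 other p53 targets, 24 were tested, 3 were called higher and none lower, beside 10.3% and 3.27% of all genes tested, and their median log2 fold change was 0.17. The share called higher was thus near that of all genes. The edgeR test called 4 higher and DESeq2 3, and both called none lower. By limma, 7 were higher and 7 were lower at an unadjusted p under 0.05. The 3 were *Pmaip1* (Noxa, a BH3-only killer protein, log2 fold change 3.92, adjusted p = 5.51e-05), *Apaf1* (the core of the apoptosome, 1.24, adjusted p = 8.72e-05) and *Plk3* (a stress-responsive kinase, 1.15, adjusted p = 0.0219), all from limma. *Pmaip1* ranged over the WT muscles from 0 to 1.15 and over the *mdx5cv* muscles from 16 to 34.4 normalized counts, and its fitted fold change depends on the pseudocount. *Pmaip1*, *Plk3* and *Bbc3* had a WT mean under 10 and passed the filter on low values through the *mdx5cv* muscles alone, so they had to be higher, and their calls are a description. The count of higher targets was not firm, since leaving out WT replicate 2 moved it to 5 and keeping only genes that reached 10 normalized counts in each muscle moved it to 1.

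At an adjusted p under 0.05 alone, 7 p53 targets were higher and 6 were lower. The higher ones further included *Bbc3* (Puma) and *Bax*, both promoters of apoptosis, the receptor *Eda2r* and the RNA-binding protein *Zmat3*, with log2 fold changes of 0.99, 0.60, 0.89 and 0.53. The lower ones were *Ccng1*, *Tigar* (a regulator of glycolysis), *Rrm2b* (a ribonucleotide reductase subunit), *Aen* (a nuclease), *Polk* (a DNA polymerase) and *Xpc* (a DNA damage sensor), with log2 fold changes from -0.86 to -0.39. *Ccng1* (cyclin G1) had the largest fall of these, from 12273 ± 2350 to 6695 ± 819 normalized counts (SD, n = 4, adjusted p = 0.000609, limma), with no overlap. The part of p53 in the values of these targets was not tested.

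**Figure D4:**
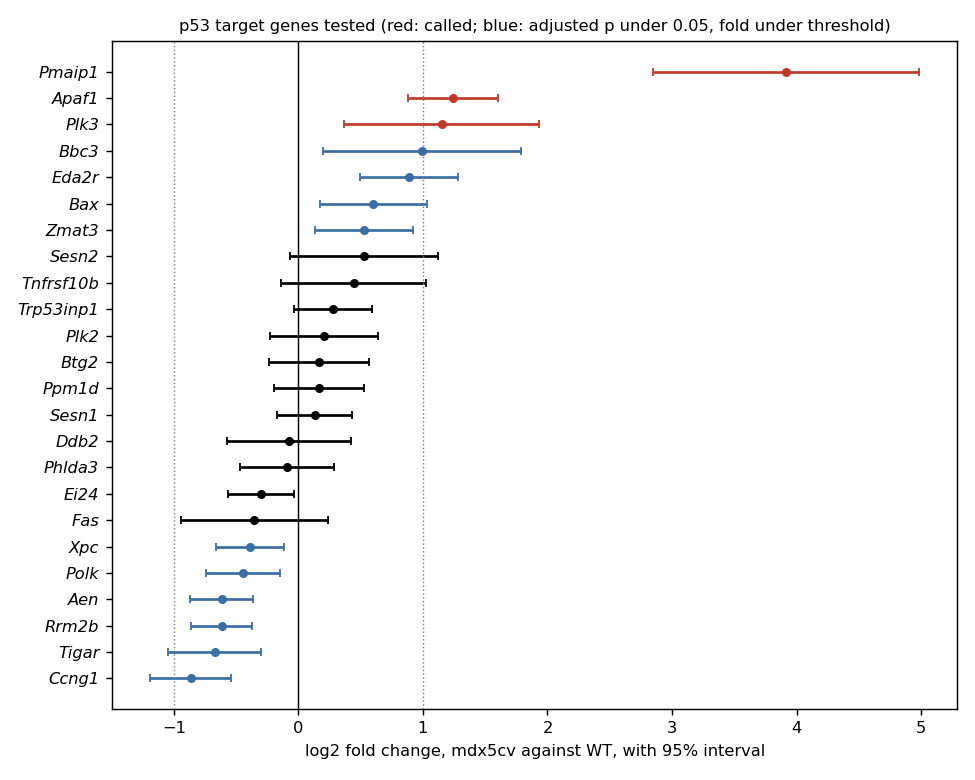
Log2 fold change in mdx5cv against WT (x axis) with its 95% interval for the 24 tested p53 target genes, ordered by value. Red points are called, blue points have an adjusted p under 0.05 and a fold below the threshold, and dotted lines mark a log2 fold change of 1 in either direction. Pmaip1 stands apart at 3.92, and the 6 lowest genes lie between -0.86 and -0.39.

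The 3 Gadd45 genes went different ways. *Gadd45a* had a normalized count of 86.0, 80.1, 92.9 and 97.5 in WT and 195, 180, 181 and 150 in *mdx5cv* replicates 1 to 4. Every *mdx5cv* muscle was above every WT muscle, and the spread within each group was small. The log2 fold change was 0.98 (standard error 0.13, adjusted p = 9.09e-05, limma). It passed 1 in 4 of 20 alternatives, which were both scalings to equal totals (with and without mitochondrially encoded genes) and the fits without WT replicate 4 or *mdx5cv* replicate 4. Its adjusted p stayed at or under 0.000658 in all 20.

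*Gadd45g*, by contrast, was lower in *mdx5cv*. In normalized counts it was at 168, 218, 384 and 192 in WT and 105, 184, 92.7 and 76.7 in *mdx5cv* replicates 1 to 4. The groups overlapped at *mdx5cv* replicate 2, and WT replicate 3 was far above the other WT muscles. The log2 fold change was -1.07 (standard error 0.27, adjusted p = 0.0074, limma). It was -0.82 without WT replicate 3, -0.99 without *mdx5cv* replicate 3 and -0.90 without *mdx5cv* replicate 4, and in these 3 cases it was no longer called.

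*Gadd45b*, the family member known to answer to TGF-beta and NF-kappaB, did not differ beyond its spread. Its normalized count was 260, 260, 199 and 168 in WT and 219, 232, 191 and 169 in *mdx5cv* replicates 1 to 4, with a log2 fold change of -0.12 (95% interval -0.46 to 0.23, adjusted p = 0.587, limma). The sign changed when muscles were scaled to equal totals (0.24). As shares of the family per kb of exon, *Gadd45a* made up 13.2% ± 2.91 in WT muscles and 31.3% ± 4.07 in those of *mdx5cv*, and *Gadd45g* 50.6% ± 10.3 and 29.2% ± 6.35 (SD, n = 4). Neither share overlapped between the groups, whereas the share of *Gadd45b* and the sum of the 3 genes did.

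*Gadd45a* (chromosome 6, 67035096 to 67037457) and *Gadd45g* (chromosome 13, 51846678 to 51848468) moved in opposite directions, and their promoters are shown because both hold the octamer ATGCAAAT on one strand or the other. The octamer is in 1.74% of all RefSeq windows and, of the 11 windows of the genes described here, in those 2 alone. In capitals, it begins 97 and 70 bases before the *Gadd45a* start (chr6:67037458-67037557, - strand) and 103 bases before the *Gadd45g* start (chr13:51846525-51846674, + strand).
Gadd45a: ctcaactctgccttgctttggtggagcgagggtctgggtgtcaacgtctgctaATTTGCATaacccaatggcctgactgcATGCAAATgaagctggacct
Gadd45g: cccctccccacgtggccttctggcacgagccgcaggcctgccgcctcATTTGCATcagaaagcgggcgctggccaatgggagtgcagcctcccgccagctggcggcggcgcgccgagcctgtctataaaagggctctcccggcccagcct
Of the other motifs searched on both strands, the TATA box (TATAAA) was in the windows of *Trp53*, *Gadd45b* and *Gadd45g* and in 13.6% of all windows. The CCAAT box was in 7 of the 11 windows and 37.4% of all windows, and the cyclic AMP response element (TGACGTCA) was in that of *Cdkn2b* and in 1.79% of all windows. A p53 half-site was in windows of *Cdkn1a*, *Trp53*, *Mdm2* and *Gadd45a*, and in 8.36% of all windows. The upstream *Cdkn1a* window held 2, which begin 73 and 51 bases before the start, the latter within the p53 element.

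Of a list of 7 genes, binding partners of Gadd45 proteins and kinases of p38 and JNK signaling, none of the kinases was called. The 1 called gene was lower, beside 3.27% of all genes tested. It was *Gadd45gip1*, a mitochondrial protein named for its binding to Gadd45 proteins, which went from 332 ± 52.1 to 116 ± 22.8 normalized counts (SD, n = 4) with a log2 fold change of -1.52 (adjusted p = 1.55e-05, limma). *Map3k4* (MEKK4), the kinase that Gadd45 proteins activate, and *Map2k6*, a kinase of p38, had log2 fold changes of -0.50 (adjusted p = 0.0016, limma) and -0.59 (adjusted p = 0.0078, limma), under the fold threshold. Of all genes tested, 10.3% were called higher and 3.27% lower. Of 8 transcriptional regulators reported to induce *Gadd45a* or *Cdkn1a* in muscle, 3 were called higher and none lower. These were *Myog* (log2 fold change 3.14, adjusted p = 7.61e-06), *Egr1* (1.83, adjusted p = 1.21e-05) and *Myod1* (1.44, adjusted p = 0.000106), all from limma. *Atf4*, known to induce *Gadd45a* in atrophying fibers, had a log2 fold change of -0.65 (adjusted p = 0.000167, limma), below the fold threshold. The part of these regulators in the values of *Gadd45a* and *Cdkn1a* was not tested.

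The levels per kb of exon placed the genes in a different order in each group. This order rests on the joined length of all annotated exons, since the transcripts present were not measured. In WT, *Gadd45g* (205 ± 83.2 normalized counts per kb) and *Gadd45b* (140 ± 28.8) were highest and overlapped each other, followed by *Mdm2* (83.8 ± 11.3) and *Cdkn1b* (69.0 ± 2.74), which overlapped too. *Gadd45a* (50.5 ± 4.34), *Cdkn1c* (45.5 ± 14.3), *Trp53* (25.7 ± 11.4), *Cdkn2b* (11.8 ± 2.41) and *Cdkn1a* (6.54 ± 2.27) came next (SD, n = 4), each of them overlapping with its neighbour. By this measure, *Cdkn1a* had the lowest mean of the genes read at all in WT. In *mdx5cv* it stood at 82.4 ± 39.9 normalized counts per kb (SD, n = 4). There the 7 highest genes, from *Gadd45b* (127 ± 17.9) down through *Gadd45a*, *Gadd45g*, *Cdkn1c*, *Mdm2* and *Cdkn1a* to *Cdkn1b* (71.1 ± 7.26), each overlapped with the next. Below *Cdkn1b* and without overlap with it came *Cdkn2a* (42.4 ± 12.7 normalized counts per kb), *Trp53* (38.3 ± 3.03) and *Cdkn2b* (14.0 ± 2.39, SD, n = 4).

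Several of the kinases and cyclins that these inhibitors act on were higher in *mdx5cv*. Of a list of 16 CDKs, cyclins, pocket proteins and their partners, 15 were tested, 6 were called higher and none lower by limma, beside 10.3% and 3.27% of all genes tested, with a median log2 fold change of 0.93. Of the 6, 4 (*Ccnb1*, *Cdk1*, *Ccna2* and *E2f1*) had a WT mean under 10 and passed the filter through the *mdx5cv* muscles alone, so they had to be higher, and the count and median are a description. The 5 with the largest fold were *Ccnb1* (4.21, adjusted p = 4.35e-05), *Cdk1* (4.18, adjusted p = 8.65e-05), *Ccna2* (4.03, adjusted p = 0.000166), *Cdk6* (2.44, adjusted p = 1.5e-06) and *Ccnd1* (2.10, adjusted p = 1.43e-05), all log2 fold changes from limma. The mitotic genes *Ccnb1*, *Cdk1* and *Ccna2* had at most 6.36 normalized counts in any WT muscle. *Cdk6*, a target of the INK4 proteins, went from 51.1 ± 9.80 to 284 ± 71.0 normalized counts (SD, n = 4), whereas the other INK4 target, *Cdk4*, had a log2 fold change of 0.12 (adjusted p = 0.519, limma). *Rb1*, the pocket protein that these kinases phosphorylate, had one of 0.32 (adjusted p = 0.0578, limma).

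Markers of several other cells differed between the groups, where 10.3% of all genes tested were called higher and 3.27% lower. Some of these markers, such as *Mymk* and *Top2a*, had a WT mean under 10 and so passed the filter through *mdx5cv* alone. Of 6 macrophage markers, 5 were called higher and 1, *Cd163*, was lower, and their summed normalized count was 345 to 544 in WT and 1363 to 3251 in *mdx5cv*. All 5 markers of regenerating fibers (summed 138 to 156 in WT and 2222 to 8617 in *mdx5cv*) and all 4 of dividing cells (6.63 to 53 and 338 to 1021) were called higher, as were 3 of 5 fibroblast markers (5196 to 7870 and 17446 to 31390). The 4 endothelial markers were lower at an adjusted p under 0.05 but not called (summed 2394 to 2882 in WT and 1438 to 1878 in *mdx5cv*). None of the 3 satellite cell markers was called (196 to 267 and 227 to 487). Of these, *Pax7* was higher without overlap (log2 fold change 0.91, adjusted p = 0.0093, limma), and *Myf5* and *Cdh15* missed the threshold for the adjusted p. The 4 T lymphocyte markers were too low to test, and *Cd3e* and *Cd8a* were at 0 in WT. Of 5 markers of fast glycolytic fibers, none was called and 2, *Actn3* (-0.64) and *Tnnt3* (-0.63, both log2 fold changes), were lower at an adjusted p under 0.05, and of 3 adipocyte markers *Adipoq* was called lower.

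Within the *mdx5cv* group, replicate 4 had the highest *Cdkn1a* and the highest sums of macrophage, fibroblast, regenerating fiber, dividing cell and satellite cell markers. The fast fiber sum was lowest there (440941, against 673369 to 698973 in the other *mdx5cv* muscles). Within WT, replicate 4 was highest for *Cdkn1a* and for the macrophage, dividing cell and satellite cell markers, lowest for the fibroblast markers and not highest for those of regenerating fibers. Its fast fiber sum was the highest of the WT muscles (788200, against 585047 to 764997 in the others). *Gadd45g* and the endothelial sum were lowest in *mdx5cv* replicate 4, while *Gadd45a* was lowest there among the *mdx5cv* muscles. The log2 fold change of *Cdkn1a* was between 3.25 and 3.75 with any 1 muscle left out. The part of these cell types in the values of *Cdkn1a*, *Cdkn1c*, *Cdkn2a*, *Gadd45a* and *Gadd45g* was not tested.

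**Figure D5:**
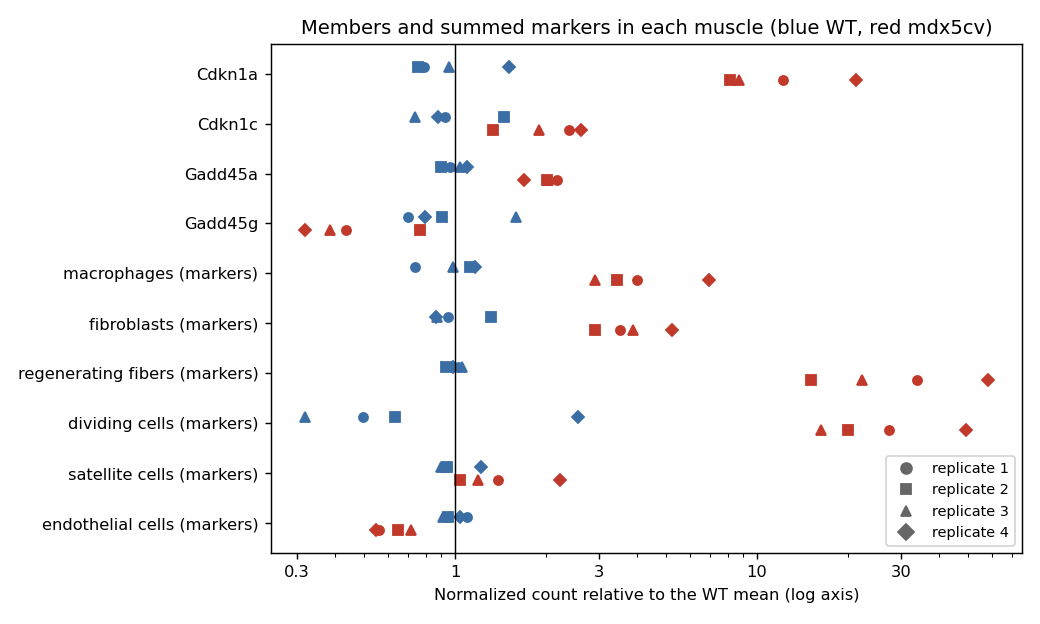
Normalized count of 4 of the genes and summed normalized count of 6 marker lists in each muscle, relative to the WT mean (x axis, log scale). Blue points are WT and red points mdx5cv, with a symbol for each replicate. The diamond, mdx5cv replicate 4, is the highest red point for Cdkn1a and for the macrophage, fibroblast, regenerating fiber, dividing cell and satellite cell markers, and the lowest for Gadd45g.

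Over the 8 muscles and 7641 genes that averaged 100 or more normalized counts, the genes nearest in pattern were named for the gene of largest fold in each family. The measure was the root-mean-square difference of log2 values centred on the WT mean. For *Cdkn1a* they were *Tubb6* (0.210), a tubulin, *Nckap1l* (0.221), a WAVE complex subunit of blood cells, and *Runx1* (0.222), a transcription factor. For *Cdkn2a* they were *Gm28653* (0.659), *Myh3* (0.669), the embryonic myosin, and *Ctss* (0.731), a cathepsin of macrophages. *Cdkn2a* itself averaged 24.8 normalized counts, so genes of its own level were not searched. With 0 in every WT muscle, its log2 values also depend on the pseudocount, so these distances are a description. The nearest to *Gadd45g* were *S1pr1* (0.303), *Ighm* (0.310) and *Aqp1* (0.318), and to *Trp53* *H3f3b* (0.149), *Tm9sf4* (0.188) and *Sema4d* (0.200).

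Counting may have mixed some of these genes with neighbours, since it is not stated whether the counts used the strand. *Cdkn1a* shares 273 exonic bases with *AC167363.2*, which had no read in any muscle, and *Cdkn1c* shares 625 with *Gm44732*, which had at most 2. *Gadd45a* shares 337 with *E230016M11Rik*, which had 12 to 37 reads in WT and 38 to 47 in *mdx5cv*, against 73 to 92 and 188 to 210 for *Gadd45a*.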

How the data were processed

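TA muscle samples, 4 of *mdx5cv* and 4 of WT mice, grouped by genotype in the labels, were compared. The labels do not say that each came from a separate mouse, so p-values measure the spread between these samples, which may be technical. The submitters' processing notes list Trim Galore 0.6.4, STAR 2.6.0c, SAMtools 1.9, featureCounts, DESeq2 1.26.0 and the mm10 build. The authors deposited a signal per gene, normalized counts that are reads divided by size factors. Whole reads were recovered for 100% of values (tolerance 0.001), 13175524 to 14921057 per muscle. Replicates differed by 8.59 to 38.4 in chi-square over its degrees of freedom, so none was a copy.

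Log2(normalized count + 1) was fitted with limma 3.58.1 (variance trend, two-sided, Benjamini-Hochberg) in R 4.3.3, over 13677 genes with a mean of at least 10. edgeR 4.0.16 and DESeq2 1.42.0 on the recovered reads were alternatives. They called 1912 of 13677 and 2502 of 19094 genes, against 1861 for limma. Others were pseudocounts of 0.1 and 10, other filters, TMM, equal totals with and without mitochondrially encoded genes, centring, no variance trend, a replicate block, the adjusted p alone and each muscle left out. On simulated data with a log2 fold change of 2 in 200 genes, limma recovered 94.0%, edgeR and DESeq2 94.5% each, over 13643 genes. False calls numbered 8 for limma, 9 for edgeR and 17 for DESeq2. The simulation used a common dispersion for all genes. It held no changes near the fold threshold, so it does not give the recovery of genes there.

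The genes and lists were chosen with earlier results of these data known. Named are all 10 genes, at most 5 called genes per pathway list and direction, *Mdm4*, *Ccng1*, *Cdkn2c*, *Dmd* and the 3 nearest in pattern to the gene of largest fold in each of 4 families. Others, such as genes past the adjusted p alone, were named after their values were seen. Promoter sequences were taken from RefSeq (GRCm38.p6), with windows for 9 of the 10 genes, and coordinates from GENCODE M21. Python 3.11.15 was used elsewhere.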

Additional observations from a re-analysis of the deposited data

Results flagged for a closer look

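In 2 of the 19 sets of 4 muscles compared, 1 muscle stood apart from the other 3 by Dixon's ratio of gap to range, where about 0.95 would do so by chance (1 in 20). *Cdkn2b* was low in WT replicate 1, at a log2 value of 3.64 (normalized count 11.5, from 10 reads), with the other WT muscles at 17.7 to 18.6. *Trp53* was high in *mdx5cv* replicate 4, at a log2 value of 7.45 (normalized count 173), with the other *mdx5cv* muscles at 148 to 150. The gap made up 0.890 and 0.925 of the range.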

How the results depend on the processing

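The 3 calls of higher genes became 5 under equal totals, where *Trp53* and *Gadd45a* joined, and ranged from 2 to 3 with 1 muscle left out. Without WT replicate 4 or *mdx5cv* replicate 4 the count stayed at 3, but the genes changed. *Gadd45a* was then called (1.02 and 1.05) and *Cdkn1c* was not (0.99 and 0.91). The 1 lower call, *Gadd45g*, became 0 under equal totals (-0.71) and under equal totals without mitochondrially encoded genes (-0.86), and ranged from 0 to 1 with 1 muscle left out. The 3 higher p53 targets became 5 under both of these scalings, 1 when each muscle had to reach 10 normalized counts and 7 by the adjusted p alone, and ranged from 2 to 5 with 1 muscle left out. The 0 lower targets became 6 by the adjusted p alone. Of the uncalled genes, *Cdkn1b* turned to -0.0567 when centred on the median and -0.0029 without *mdx5cv* replicate 2 (up to 0.111 with another muscle left out), and *Gadd45b* to 0.24 under equal totals and 0.0930 without mitochondrially encoded genes. Under equal totals, *Cdkn1b* (0.40) and *Mdm2* (0.47) passed the threshold for the adjusted p but not that for the fold. The cause was not tested, except that fewer genes were tested under the stricter filter, which left out *Cdkn2a*. *Cdkn1a* and *Cdkn2a* were called in every setting that gave them a value.

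The labels of same-numbered muscles have only a number in common. The correlations of their deviations were 0.086, 0.034, 0.121 and 0.114. Between muscles of different numbers they ran from -0.158 to 0.0999. Whether same-numbered muscles shared a batch was not tested. With the replicate block, 3 of the 10 genes were called higher and 1 lower, as without it, 3 p53 targets were called higher and 0 lower, and 1882 genes were called in all. The adjusted p of *Trp53* was then 0.0308 (limma), with its log2 fold change still 0.71 and not called.

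*Cdkn2b* rested on 10 to 28 reads a muscle, and its 95% interval of -0.34 to 0.81 on the log2 scale shows the precision at this depth.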

Other observations

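Genes often measured together with p16Ink4a and p21 in senescent cells were in part higher in *mdx5cv*. Of 11 such genes, 10 were tested and 5 were called higher and none lower by limma, with a median log2 fold change of 1.264, beside 10.3% called higher, 3.27% called lower and a median of 0.0035 over all genes tested. Of the 5, 4 (*Mmp3*, *Timp1*, *Ccl2* and *Plaur*) had a WT mean under 10 and passed the filter on low values through the *mdx5cv* muscles alone, so they had to be higher, and the count and median are a description. The 5 were the matrix protease *Mmp3* (log2 fold change 4.85, adjusted p = 4.97e-06), its inhibitor *Timp1* (4.03, adjusted p = 6.47e-06), the chemokine *Ccl2* (2.93, adjusted p = 0.000782), the urokinase receptor *Plaur* (2.70, adjusted p = 0.000101) and *Glb1* (1.57, adjusted p = 0.000364), which encodes lysosomal beta-galactosidase. *Mmp3* was at 0 to 2.21 normalized counts in WT and at 34.9 to 82.3 in *mdx5cv*. *Lmnb1*, a nuclear lamin whose loss marks senescent cells, had a log2 fold change of 0.43 (adjusted p = 0.0787, limma), *Hmgb1* one of -0.36 (adjusted p = 0.0255, limma), and *Il6* was too low to test. The edgeR and DESeq2 tests also called 5 higher and none lower. Macrophages and fibroblasts express several of these genes as well, and the sums of their markers were higher in the same muscles. Their part in these values was not tested.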
